A study of Pinus pinaster with 4 samples.

Results

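The 5 genes described here encode parts of the photosynthetic membrane of maritime pine (*Pinus pinaster*) needles. They are oxygen-evolving enhancer protein 2 (OEE2, sp_v3.0_unigene210153), the photosystem II protein psbY (sp_v3.0_unigene35632), the light-harvesting protein Lhca4 (sp_v3.0_unigene18224), photosystem I reaction center subunit V (PsaG, sp_v3.0_unigene18532) and the chloroplastic ATP synthase subunit b' (sp_v3.0_unigene16938). They are 5 of the 17571 genes of the RNA-Seq table and were taken from it by identifier. Their names are descriptions by matches to other species in the array table of the same study. The genes had been picked from array rows with low p values and with their RNA-Seq values known, on RNA that included the plants analysed here. The difference between the provenances therefore served to choose them. It is given below as a description. Calls of the 5 genes by tests across all genes are printed only as counts and support nothing. The contig lengths and sequences were not used here, so no level is given per length. Counts of contigs with similar sequences, such as members of 1 gene family, may be split between them.

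The plants came from the Leiria provenance of coastal Portugal (L6 and L7) and from the Tamrabta provenance of the Moroccan Atlas Mountains (T3 and T6). All 4 were rooted cuttings of 17 months from a clonal collection, potted in peat and vermiculite in the same greenhouse in northern Spain, fed with the irrigation water and pruned before adult needles were collected on the same day. No treatment separated the groups. The sources used here do not say if both plants from a site were of 1 clone, and with n = 2 the spread between them is a poor estimate of the spread within a provenance. The limma standard errors and p values below use the spread between these plants, drawn toward a trend over all genes. They do not measure the spread within a provenance at large.

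In the thylakoid membrane of the chloroplast, photosystem II takes electrons from water and passes them through the cytochrome b6-f complex and plastocyanin to photosystem I. The protons that this flow moves into the thylakoid lumen drive the chloroplast ATP synthase. In land plants the subunits named here are encoded in the nucleus and imported into the chloroplast, and transcripts of this group are known to be plentiful in green leaves. In bulk needles, fewer green cells and less RNA of these genes per cell cannot be told apart.

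The table held between 40019608 and 58835449 counts for each library. Its values are counts per 1000000 (CPM) divided by factors that correct for library composition (TMM), so the columns do not share a sum. The columns summed to 1100080 (L6) and 1005780 CPM (L7) in Leiria, against 989363 (T3) and 907233 CPM (T6) in Tamrabta. The counts of the 5 genes ran from 4003, for OEE2 in T6, to 108101, for Lhca4 in L7. Counting error was therefore small: the exact Poisson 95% interval of the lowest of these values, 89.0 CPM, was 86.3 to 91.8 CPM. Such intervals cover counting error only. Of the 4 contigs fixed as markers of green tissue, a Rubisco small chain, a pair of chlorophyll a/b-binding proteins and a plastocyanin, 0 had a row in the table used here, so the label of the tissue could not be checked with them.

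All 5 genes were expressed at higher levels in Leiria than in Tamrabta. Both Leiria plants lay above both Tamrabta plants for 5 of 5 genes, as they did for 25.1% of all genes, and the reverse held for 0 of 5, against 23.9% of all genes. The 4 plants also kept 1 order from high to low, L6, L7, T3 and T6, for 5 of 5 genes, against 9.24% of all genes. That order includes Leiria above Tamrabta, and of the 4403 genes with both Leiria plants above, 1623 had it. Because this contrast was used in choosing the genes, nothing is read from these counts.

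OEE2, also called PsbP, is a protein of the thylakoid lumen that stabilises the manganese cluster at which photosystem II splits water. It was at 307 (L6) and 232 CPM (L7) in Leiria, against 152 (T3) and 89.0 CPM (T6) in Tamrabta. The groups did not overlap, and on the log2 scale T6 stood furthest from the other plants. The 1.52-fold step from L7 to T3 was smaller than the 1.71-fold step from T3 to T6. The means were 269 ± 52.6 CPM in Leiria and 121 ± 44.9 CPM in Tamrabta (SD, n = 2 each). The logFC, the difference of Leiria minus Tamrabta in mean log2(CPM + 0.5), was 1.19 (standard error 0.33), or 2.28-fold, the largest of the 5. It depended on the Tamrabta plants, at 1.58 without T3 and 0.80 without T6.

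The psbY protein is a small membrane subunit at the periphery of photosystem II. It was at 2270 (L6) and 1793 CPM (L7) in Leiria, against 1428 (T3) and 1077 CPM (T6) in Tamrabta. Again the groups did not overlap, and the step between the nearest plants of the provenances, L7 over T3, was 1.26-fold. That was about as large as the 1.27-fold step between the Leiria plants and smaller than the 1.33-fold step between the Tamrabta plants. The means were 2032 ± 337 CPM in Leiria and 1253 ± 249 CPM in Tamrabta (SD, n = 2 each), with a logFC of 0.70 (standard error 0.25).

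Lhca4 is an antenna protein that binds chlorophyll and passes excitation energy to photosystem I. It had 2650 (L6) and 1848 CPM (L7) in Leiria, against 1427 (T3) and 1103 CPM (T6) in Tamrabta. L6 stood apart here: it was 1.43-fold above L7, the widest gap between Leiria plants among the 5 genes. The step from L7 to T3 was smaller, at 1.30-fold, and close to the 1.29-fold step from T3 to T6. The means were 2249 ± 567 CPM in Leiria and 1265 ± 229 CPM in Tamrabta (SD, n = 2 each), and the logFC was 0.82 (standard error 0.28).

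PsaG is a membrane subunit of photosystem I on the side where the antenna docks. It had 1595 (L6) and 1226 CPM (L7) in Leiria, against 904 (T3) and 735 CPM (T6) in Tamrabta. The Leiria and Tamrabta plants were separated by a 1.36-fold step from L7 to T3, wider than the 1.30-fold between L6 and L7 and the 1.23-fold between T3 and T6. The means were 1410 ± 261 CPM in Leiria and 819 ± 120 CPM in Tamrabta (SD, n = 2 each), with a logFC of 0.78 (standard error 0.23).

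Subunit b' belongs to the stalk that anchors the catalytic head of the chloroplast ATP synthase to the membrane. It was at 1654 (L6) and 1242 CPM (L7) in Leiria, against 1039 (T3) and 897 CPM (T6) in Tamrabta. The groups did not overlap, but L7 was only 1.20-fold above T3, less than the 1.33-fold between L6 and L7. The means were 1448 ± 291 CPM in Leiria and 968 ± 101 CPM in Tamrabta (SD, n = 2 each), and the logFC of 0.57 (standard error 0.23) was the smallest of the 5.

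**Figure D1:**
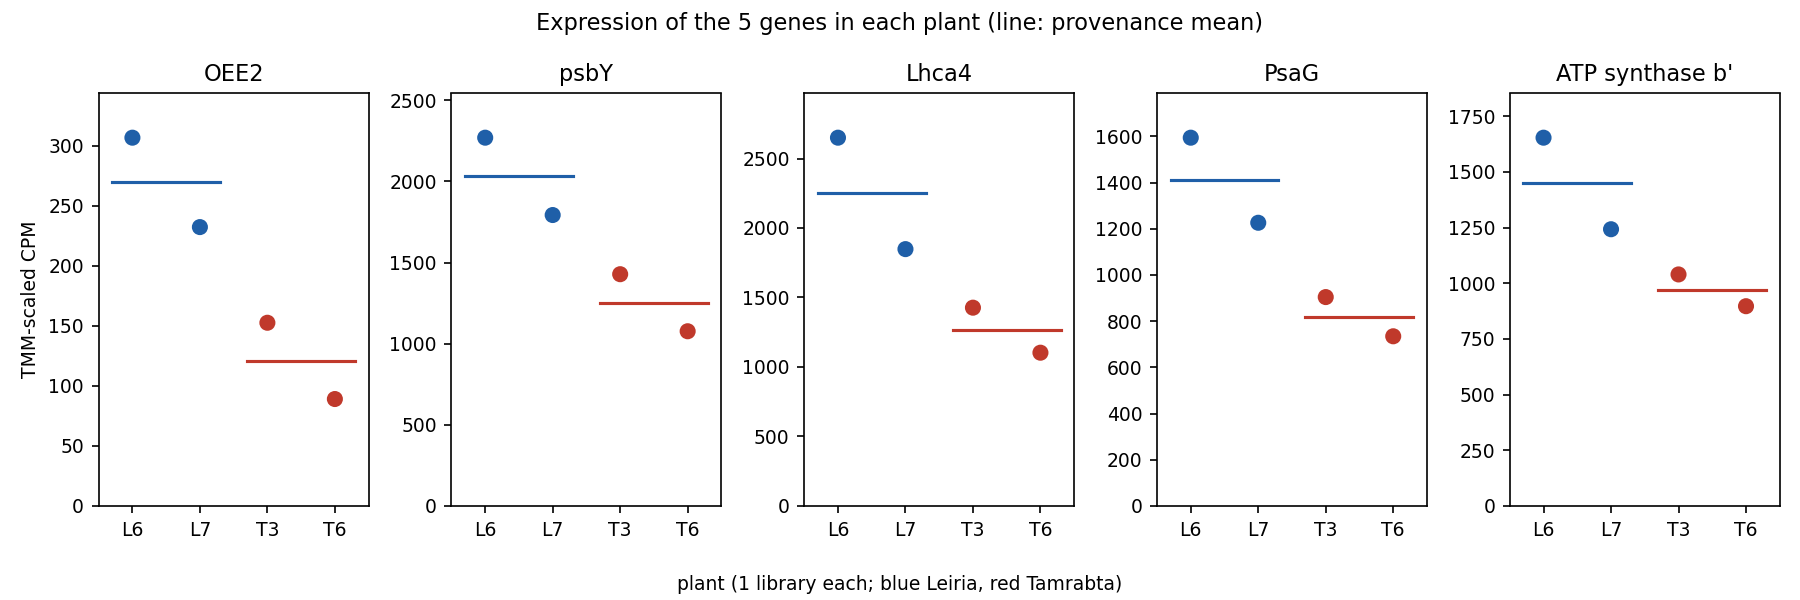
Expression of the 5 genes in each plant, as TMM-scaled CPM on axes that start at 0, with Leiria plants (L6, L7) in blue and Tamrabta plants (T3, T6) in red. Points are single libraries and lines are provenance means. In every panel both blue points lie above both red points, and L6 is the highest and T6 the lowest, from 307 to 89.0 CPM for OEE2 and from 1654 to 897 CPM for ATP synthase b'.

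The median logFC of the 5 genes was 0.78, against 0.011 over all 17571 genes. A gene was counted as called with an absolute logFC over 1 and a Benjamini-Hochberg adjusted p under 0.05. Limma called 0 of 5, against 0.154% of all genes in either direction and 0.108% higher in Leiria. At an unadjusted p under 0.05 it had 4 of the 5, against 14.7% of all genes in either direction and 9.08% higher in Leiria. The edgeR exact test called 1 of 5, OEE2, against 5.99% in either direction and 3.51% higher in Leiria. DESeq2 called 1 of 5, OEE2, against 6.19% and 3.60%. The edgeR quasi-likelihood test called 0 of 5, against 0.0114% and 0.00569%. The rule used this contrast, so these counts are no evidence on the genes. With 2 plants against 2, the smallest two-sided p of an exact permutation test is 0.333.

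Together the 5 genes took 0.770% (L6) and 0.631% (L7) of the recovered counts of the Leiria plants, against 0.50% (T3) and 0.430% (T6) in Tamrabta. These shares do not depend on the TMM factors. They ran in the same order of plants as the CPM of each gene.

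The place of a gene among all genes of the same library does not depend on scaling either. Ranked by CPM, which is not per length, OEE2 held rank 564 (L6) and 739 (L7) in Leiria, against 1312 (T3) and 2337 (T6) in Tamrabta of 17571 genes. It was thus in the top 3.21% of genes in L6 and in the top 13.3% in T6. The other 4 genes stayed among the most abundant contigs in every library. Lhca4 held ranks 37 and 48 in L6 and L7, against 64 and 68 in T3 and T6. For psbY the ranks were 44 and 51 in Leiria, against 63 and 73 in Tamrabta. ATP synthase b' held ranks 70 and 81 in Leiria, against 100 and 101 in Tamrabta. PsaG was at 75 and 84 in Leiria, against 123 in T3 and 119 in T6. All 5 genes thus ranked higher in both Leiria plants than in both Tamrabta plants. Between T3 and T6, PsaG and ATP synthase b' kept nearly the same rank although their CPM was lower in T6.

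Differences between the plants of 1 provenance are also given as a description, since a low array p favours a small spread within a provenance and the values were known when the genes were chosen. L6 was above L7 for 5 of 5 genes, by 1.27- to 1.43-fold, while 48.3% of all genes had L6 above L7. T3 was above T6 for 5 of 5 genes as well, against 50.0% of all genes. There the genes were less alike: OEE2 was 1.71-fold higher in T3, psbY 1.33-fold, Lhca4 1.29-fold, PsaG 1.23-fold and ATP synthase b' 1.16-fold. With 1 library for each plant these ratios had no replicate. The genes share their libraries, so 5 genes in 1 direction are not 5 observations. After quantile normalization, which gives every library the same distribution of values, T3 was above T6 for 4 of 5 genes.

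A ratio of 2 genes in the same library does not depend on how the library was scaled, and contig length cancels when such ratios are compared between libraries. Relative to ATP synthase b', OEE2 had a CPM ratio of 0.185 (L6) and 0.187 (L7) in Leiria, against 0.147 (T3) and 0.0992 (T6) in Tamrabta. The Leiria plants were nearly identical, and T6 was far below T3. The mean log2 ratio was 0.62 higher in Leiria than in Tamrabta, or 0.34 with T6 left out and 0.90 with T3 left out. Such a difference equals the logFC of the gene minus that of ATP synthase b', the smallest among the genes described. It was therefore bound to be positive for each of the others. It also rests on the contrast used in choosing the genes, so it is a description only. For Lhca4 the CPM ratio to ATP synthase b' was 1.60 (L6) and 1.49 (L7) in Leiria, against 1.37 (T3) and 1.23 (T6) in Tamrabta, a difference of 0.25 on the log2 scale. The ratio of PsaG was 0.964 and 0.987 in L6 and L7, against 0.870 and 0.819 in T3 and T6, a difference of 0.21. These 3 ratios did not overlap between the provenances, but with 2 plants against 2 this is frequent. Among single genes, 25.1% had both Leiria plants above and 23.9% both Tamrabta plants above. The ratios of OEE2 to psbY, Lhca4 and PsaG did not overlap either, with differences of 0.49, 0.37 and 0.41. OEE2 had the largest logFC of the genes described, so these were bound to be positive. Nor did the ratios of psbY to Lhca4 and to PsaG overlap, with differences of only -0.12 and -0.076. The ratio of psbY to ATP synthase b' did overlap, with 1.37 and 1.44 in Leiria plants, against 1.37 and 1.20 in Tamrabta plants. Its difference was 0.13, or 0.035 with T6 left out. The mean log2 ratio of Lhca4 to PsaG differed least between the provenances, by 0.041, with overlapping plants.

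**Figure D2:**
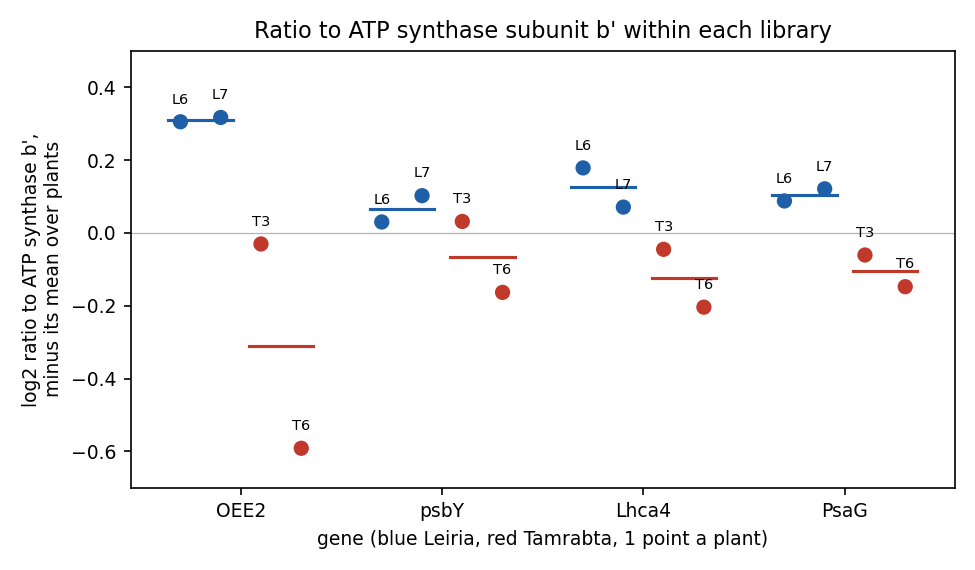
The log2 ratio of each photosystem gene to ATP synthase b' within each library, minus its mean over the 4 plants, with Leiria in blue, Tamrabta in red and provenance means as lines. OEE2 shows the widest difference between the means, 0.62, with T6 lowest, and psbY the narrowest, 0.13, with overlapping plants.

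The profiles of the 5 genes over the 4 plants were compared by the Euclidean distance between log2(CPM + 0.5) values centred on each gene. Among the genes, psbY and PsaG were the closest pair at 0.11, followed by Lhca4 and PsaG at 0.12. OEE2 and ATP synthase b' were the farthest apart at 0.74. The profile of OEE2 was thus the steepest and that of ATP synthase b' the flattest.

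Other genes had profiles near this shape. The 5 genes themselves lay between 0.083 (Lhca4) and 0.46 (OEE2) from their mean profile, with ATP synthase b' next to OEE2 at 0.28. Of 9211 other genes with a mean CPM of at least 10, 543 lay nearer to that profile than OEE2, the farthest of the 5. The median distance of the 9211 genes was 0.97. The nearest were sp_v3.0_unigene102214, at a distance of 0.040, and sp_v3.0_unigene17918, at 0.048, which have no description among those held. The nearest with a description was uroporphyrinogen-III synthase (sp_v3.0_unigene6285), an enzyme of the tetrapyrrole pathway that leads to chlorophyll and haem, at 0.067. It had 23.6 and 17.1 CPM in the Leiria plants, against 13.7 and 9.83 CPM in the Tamrabta plants. Next came an HVA22-like protein (sp_v3.0_unigene17397) at 0.087 and a putative ATP binding protein (sp_v3.0_unigene6915) at 0.088. The likeness rests on 4 libraries, and says nothing of shared function or control.

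The order L6, L7, T3, T6 was also frequent among abundant genes at large. It was found in 6.93% of genes with a mean CPM under 10, in 9.80% of those between 10 and 100 CPM, in 13.1% of the 1586 genes between 100 and 300 CPM, the class of OEE2, and in 20.5% of those between 300 and 1000 CPM. In the class of the other 4 genes, the 104 genes with a mean of 1000 CPM or more, it was found in 52.9%. Both Leiria plants lay above both Tamrabta plants for 24.8% of the genes in each of the lowest classes, 24.2% in the class of OEE2, 29.2% in the next and 61.5% in the highest. In the highest class L6 was above L7 for 82.7%, and T3 was above T6 for 81.7%. The median logFC of the class was 0.51.

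Set against their own class, the genes differed. In the class of OEE2, 36 of 1586 genes had a larger logFC than its own, and the median was 0.035. Lhca4, PsaG and psbY had 20, 22 and 29 of 104 genes above them in logFC. ATP synthase b' lay close to the middle of its class, with 47 of 104 genes above it. Its logFC was 0.061 above the class median, against 0.31 for Lhca4, 0.27 for PsaG and 0.19 for psbY. The logFC was known when the genes were chosen, so these places in the classes are a description and support nothing. The part of abundance in the differences between provenances was not tested.

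**Figure D3:**
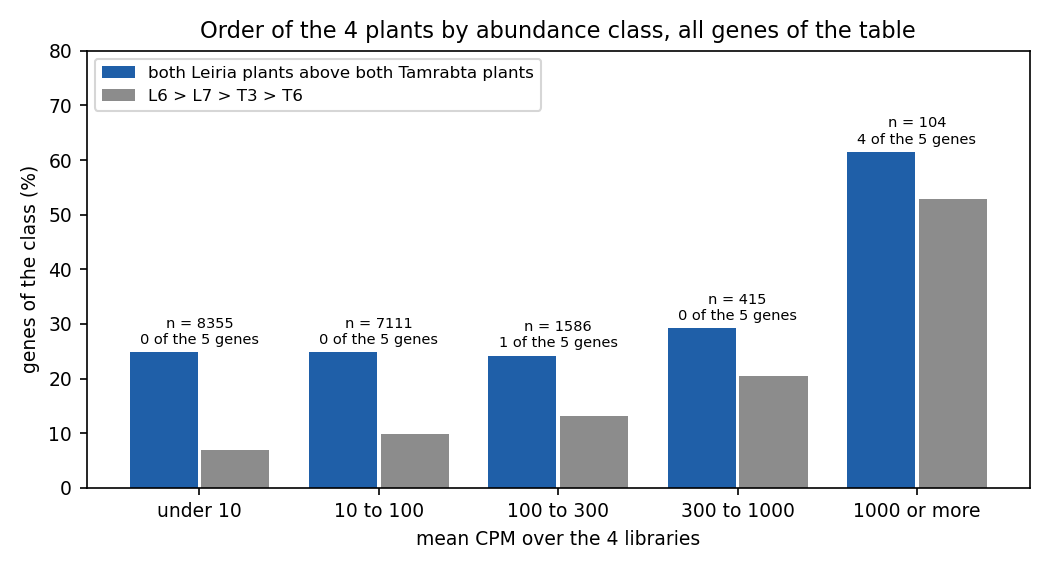
Share of all genes, in percent, with both Leiria plants above both Tamrabta plants (blue) and with the order L6, L7, T3, T6 from high to low (grey), in classes of mean CPM. The grey share is 6.93% in the lowest class and 52.9% in the highest, which holds 4 of the 5 genes.

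The direction of the difference was the same under each scaling of the libraries, while its size was not. Scaled to a total of 1000000 per library, which put the median logFC over the whole table at -0.13, both Leiria plants stayed above both Tamrabta plants for 5 of 5 genes, against 17.2% of all genes, with 33.9% the other way round. The order of the 4 plants held for 5 of 5 genes, against 4.78% of all genes, or 840 of the 3014 with both Leiria plants above. L6 was above L7 for 5 of 5 genes, against 33.1%, and T3 above T6 for 5 of 5, against 39.7%. These counts rest on values known when the genes were chosen, and nothing is read from them. After quantile normalization the logFC of OEE2 was 1.15, close to its deposited value, but those of the other 4 genes were lower, at 0.50 for PsaG, 0.42 for Lhca4, 0.36 for psbY and 0.33 for ATP synthase b'. OEE2 was thus the gene least affected by this normalization. Dropping 1 library gave a range of 0.50 to 0.91 for psbY, 0.56 to 1.08 for Lhca4, 0.59 to 0.97 for PsaG, and 0.36, with L6 left out, to 0.78 for ATP synthase b'.

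**Figure D4:**
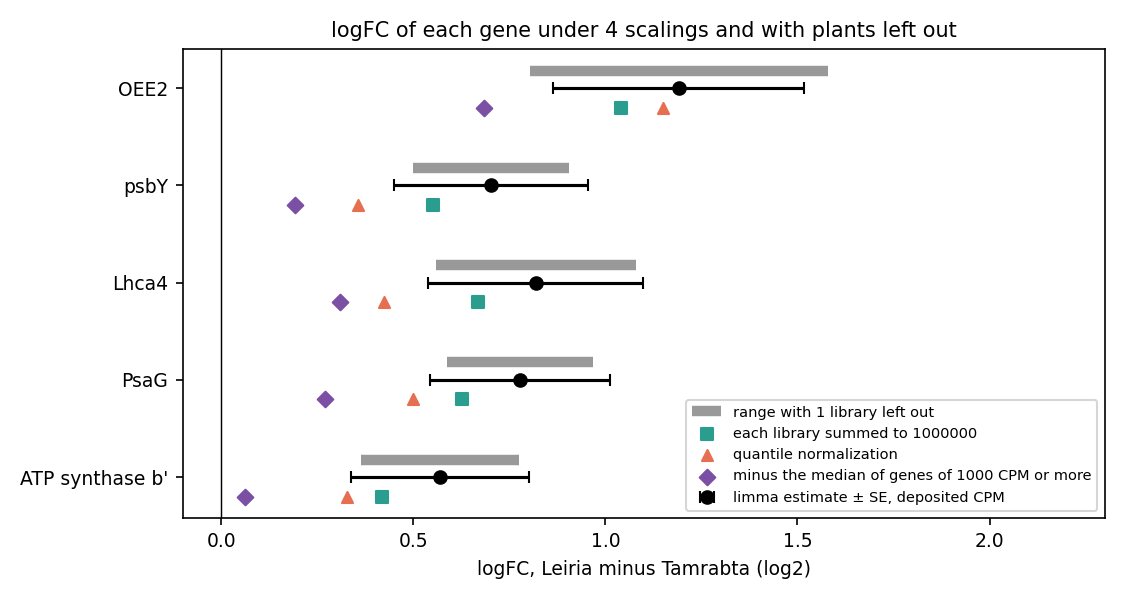
The logFC, Leiria minus Tamrabta, of each gene: limma estimate with its standard error on the deposited CPM (black), range with 1 library left out (grey bar), and values under other scalings (coloured symbols). All values are above 0, from 0.061 for ATP synthase b' relative to the genes of 1000 CPM or more to 1.58 for OEE2 without T3. OEE2 does not belong to the class of 1000 CPM or more.

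Other genes of photosynthesis, and with them a ferredoxin described as heterotrophic, were taken by description from the array rows held. Those rows had low array p values on RNA that included these plants. Their directions are therefore no independent evidence. Of 29 such genes 17 had an RNA-Seq row, and 14 of the 17 had a positive logFC, with a median of 0.56 against 0.011 over all genes. Limma called 0 of the 17, against 0.154% of all genes. At an unadjusted p under 0.05 it had 8, all higher in Leiria, as were 9.08% of all genes. The edgeR exact test, its quasi-likelihood test and DESeq2 called 0 as well, against 5.99%, 0.0114% and 6.19% of all genes. In 17 genes, counts of 0 are near these shares. Both Leiria plants were above both Tamrabta plants for 12 of the 17, against 25.1% of all genes, and both Tamrabta plants above both Leiria plants for 1, against 23.9%.

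The 6 other listed genes of the photosystems and antenna, and the plastocyanin and the iron-sulfur subunit of cytochrome b6-f, had no row in the table used here. The thylakoid lumen and assembly list had 9 of 10 genes with a row, 8 of them with a positive logFC and a median of 0.56. The largest difference was that of thylakoid lumenal protein 2 (sp_v3.0_unigene8356), with 35.2 and 34.0 CPM in the Leiria plants, against 19.4 and 15.3 CPM in the Tamrabta plants. Its logFC was 0.98 ± 0.19 (standard error; limma adjusted p = 0.153). A second lumen protein (sp_v3.0_unigene27088) had 301 and 272 CPM in Leiria, against 166 and 154 CPM in Tamrabta, a logFC of 0.84 ± 0.16 (standard error; limma adjusted p = 0.15). The groups did not overlap for either gene, and the spread within each was small beside the difference.

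In the carbon fixation list 3 of 6 genes had a row, and both Leiria plants were above both Tamrabta plants for all 3. Each of the 3 had a mean of 1000 CPM or more, the class in which 61.5% of genes did so. A carbonic anhydrase (sp_v3.0_unigene16974), which interconverts carbon dioxide and bicarbonate, had 4777 and 2283 CPM in the Leiria plants, against 2206 and 1022 CPM in the Tamrabta plants. L7 was barely above T3, and the logFC was 1.14 ± 0.55 (standard error; limma adjusted p = 0.432). The NADP-dependent malate dehydrogenase of the chloroplast (sp_v3.0_unigene10448), which exports reducing power as malate, had 2516 and 1761 CPM in Leiria, against 1341 and 998 CPM in Tamrabta. Its logFC was 0.86 ± 0.29 (standard error; limma adjusted p = 0.297), in the range of the photosystem genes.

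Of the tetrapyrrole and chlorophyll list, 4 of 4 genes had a row and 3 had a positive logFC, with a median of 0.28. Uroporphyrinogen-III synthase (sp_v3.0_unigene6285) led the list with a logFC of 0.76 ± 0.27 (standard error; limma adjusted p = 0.319). GUN4 (sp_v3.0_unigene35416), which binds porphyrins and stimulates magnesium chelatase, had 350 and 320 CPM in the Leiria plants, against 287 and 240 CPM in the Tamrabta plants, a logFC of 0.35 ± 0.18 (standard error; limma adjusted p = 0.444). The 1 electron carrier with a row, a ferredoxin described as heterotrophic (sp_v3.0_unigene11150), ran the other way, with 59.8 and 48.9 CPM in Leiria, against 65.9 and 68.3 CPM in Tamrabta. Its logFC was -0.31 ± 0.17 (standard error; limma adjusted p = 0.489). Ferredoxins of this kind serve tissues that do not photosynthesise, yet the gene is counted among the 17 above. The reason for its direction was not tested.

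**Figure D5:**
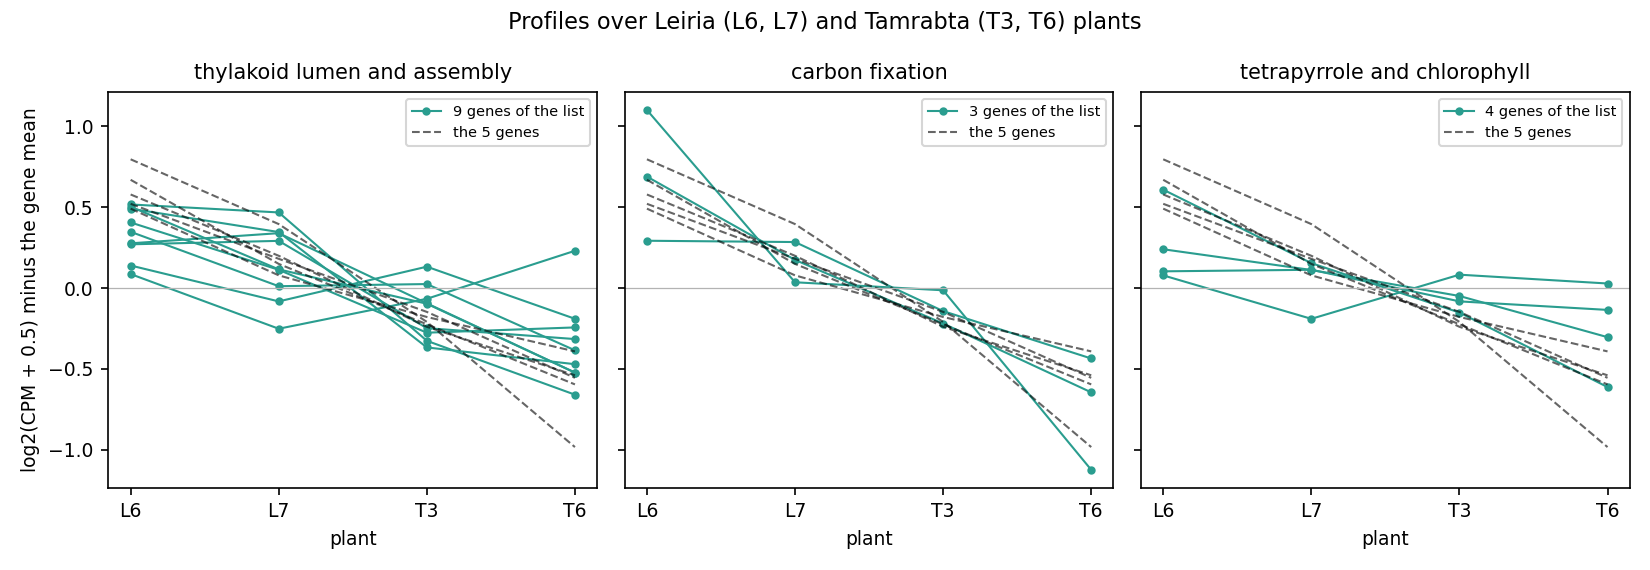
Centred log2(CPM + 0.5) of the listed genes (green) and of the 5 genes (dashed black) over the 4 plants, with Leiria (L6, L7) at the left and Tamrabta (T3, T6) at the right of each panel. In the lumen list 8 of 9 genes have a positive logFC, and the carbonic anhydrase spans the widest range of the carbon fixation list, from 4777 CPM in L6 to 1022 CPM in T6.

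Markers of other cells were also checked. Of 4 genes fixed for dividing cells, 2 had a row, and their summed level was 13.8 (L6) and 10.7 CPM (L7) in Leiria, against 7.67 (T3) and 5.98 CPM (T6) in Tamrabta. The larger difference was that of the cell cycle kinase CDKB1-1 (sp_v3.0_unigene18094), with 9.13 and 6.58 CPM in Leiria, against 1.72 and 3.29 CPM in Tamrabta, which DESeq2 called, as it did 6.19% of all genes, while limma and both edgeR tests did not. The other, linker histone H1 (sp_v3.0_unigene145524), had 4.67 and 4.10 CPM in Leiria, against 5.94 and 2.69 CPM in Tamrabta, with overlapping plants. Of 2 vascular genes 1 had a row, the receptor kinase TDR (sp_v3.0_unigene37252), with 6.29 and 5.91 CPM in Leiria, against 2.83 and 4.45 CPM in Tamrabta. Of the markers with a row 0 were at 0 in any library. The summed level of the dividing cell markers and the level of TDR were higher in both Leiria plants, the first through CDKB1-1, and their part in the differences was not tested.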

How the data were processed

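RNA of needles from 4 plants was sequenced as paired-end reads, with 1 library for each plant. After trimming (SeqTrimNext) and mapping of read pairs to SustainPineDB contigs (Bowtie2), the authors deposited a signal per contig, the CPM that edgeR gives after TMM scaling. The versions, and whether strand was used, are not given in sources used here. Every value was a whole multiple of the CPM of 1 count, and counts recovered by dividing by it were whole within 0.01 for 100% of 70284 values. Leiria libraries totalled 40019608 (L6) and 58835449 (L7), against 49935290 (T3) and 40807468 (T6) for Tamrabta. The libraries of a provenance differed by more than sampling noise (chi-square over degrees of freedom: Leiria 85.1, Tamrabta 184).

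The logFC and its standard error came from limma 3.58.1 (R 4.3.3) fitted to log2(CPM + 0.5) of the 4 libraries without covariates, with its trend option. With that option the variance of each gene is drawn toward a trend with abundance over all genes. All 17571 genes entered the Benjamini-Hochberg adjustment, and calls needed an absolute logFC over 1 with adjusted p under 0.05. The exact and quasi-likelihood tests of edgeR 4.0.16 and DESeq2 1.42.0 on the recovered counts were alternatives, as were other pseudocounts, a filter at a mean CPM of 5, other scalings, a replicate block and each library left out. The recovery, limma and the exact test were tested on simulated data. Gene names came from descriptions in the paper's array table, of which 1791 identifiers were held and 1036 matched the RNA-Seq rows. The 5 genes and all lists were chosen with earlier results of these data known. The text named the 5 genes, up to 2 genes with the largest absolute logFC in each list, and the genes with the nearest profiles. A plastid gene that shares its description with a named gene was added. The limits of the abundance classes and the values relative to the most abundant class were chosen after the data were seen.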

Additional observations from a re-analysis of the deposited data

How the results depend on the processing

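The number of genes called depended on the test and the filter. Against 27 with limma it was 17 with a pseudocount of 1, 5 at a mean CPM of at least 5, 9 with the replicate number as a block, 2 with the edgeR quasi-likelihood test, 1053 with the edgeR exact test and 1088 with DESeq2, and between 0 and 32 with 1 library left out (0 without L6, without L7 or without T3). A fit without 1 library leaves 1 plant in a provenance, which is then assumed to vary like the other. The replicate numbers pair nothing in the labels beyond the number itself: the deviations of same-numbered plants had a correlation of 0.20 across genes, over 2 pairs.

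The logFC of the 5 genes stayed positive under each alternative run. Quantile normalization lowered it to 0.36 for psbY, 0.42 for Lhca4, 0.50 for PsaG and 0.33 for ATP synthase b'. Relative to the median of genes with a mean of 1000 CPM or more it was 0.68 for OEE2, 0.19 for psbY, 0.31 for Lhca4, 0.27 for PsaG and 0.061 for ATP synthase b', the smallest margin found. OEE2, with a mean of 195 CPM, does not belong to that class. Relative to the median of its own class its logFC was 1.16. With 1 library left out it lay between 0.80 and 1.58 for OEE2. The median log2 ratio of L6 to L7 over the 5 genes, 0.40, was 0.27 at a library total of 1000000 and 0.16 under quantile normalization. That of T3 to T6, 0.37, was 0.25 and 0.073, and for PsaG alone it turned to -0.029 after quantile normalization. The median of the other photosynthesis genes lay between 0.41 and 0.60 with 1 library left out. Each of the 5 genes had at least 4003 counts in every library, so counting error was small for their values.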

Other observations

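Genes of plastid import and translation, which serve the chloroplast without being part of the photosynthetic chain, made up a list of 6. Of these, 5 had a row, 4 with a positive logFC and 1 with a negative one, and the median was 0.22. Limma called 0 of the 5, against 0.154% of all genes, and the edgeR exact test 0, against 5.99%. At an unadjusted p under 0.05 limma had 0 as well, against 14.7% of all genes. In 5 genes, counts of 0 are near these shares. The chloroplastic ribosome-recycling factor (sp_v3.0_unigene22870) had 253 and 252 CPM in the Leiria plants, against 240 and 137 CPM in the Tamrabta plants, with a logFC of 0.47 (standard error 0.31) and T6 apart from the other plants. For a putative chloroplast ribonucleoprotein (sp_v3.0_unigene7795) the values were 122 and 111 CPM in Leiria, against 112 and 83.6 CPM in Tamrabta, with overlapping plants. A gene with the same description (sp_v3.0_unigene3310) ran the other way, with 54.2 and 46.3 CPM in Leiria, against 61.0 and 56.8 CPM in Tamrabta. Its logFC was -0.23 (standard error 0.16). Both Tamrabta plants were above both Leiria plants, as for 23.9% of all genes. Of 5 genes of mitochondrial respiration 2 had a row, with logFC values of -0.059 and -0.11 and overlapping plants. All of these genes come from the same array rows, and the difference between the lists was not tested.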
